A study of Rattus norvegicus with 6 samples.

Results

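The 9 genes described are the 3 members of the Gadd45 family (Gadd45a, Gadd45b and Gadd45g) and 6 genes known as transcriptional targets of the tumour suppressor p53 (Ccng1, Cdkn1a, Mdm2, Aen, Bax and Btg2). They were selected on the measured log2 fold change of Gadd45b, which was much higher in rats given pregnenolone-16α-carbonitrile (PCN), and the other 8 were listed by name for comparison with it. The 9 genes were read by 12 probes of 30367 on the array and stood among 16389 tested genes, and each of the 12 probes lay well above background on all 6 arrays. PCN, a man-made steroid, switches on the pregnane X receptor (PXR) of rodents, which senses foreign compounds in the liver. Livers came from male Wistar Hannover rats (RCCHanTM:WIST), bought at 4 weeks of age and quarantined for 1 week. Of the 6 rats, 3 were given corn oil (control) and 3 were given PCN at 100 mg/kg per day, in both cases by gavage for 7 days. Each liver was read on 1 Agilent 1-colour array from 100 ng of total RNA, and the labels call the samples of a group biological replicates. No genotype differs between the groups.

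Gadd45 proteins are small acidic proteins without known enzyme activity that act by binding partners. They bind and activate the kinase Map3k4, which leads to the stress kinases p38 and JNK, and they also bind Pcna, Cdkn1a and the mitotic kinase Cdk1. Gadd45a is a classic target of p53, whereas Gadd45b is best known as an early response gene downstream of NF-kappaB and TGF-beta, and in mouse liver it is known to respond to activators of CAR, a receptor related to PXR. p53 is itself held low by Mdm2, one of its own targets, so that p53 and Mdm2 form a feedback loop.

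The region just before the transcription start is shown for the 3 paralogs and for 3 p53 targets, because the members differ in which factor is known to drive them. The sequences are the 250 bases before the start from RefSeq (build GRCr8), written 5′ to 3′ on the strand of the gene. Of the 9 members, 8 had an entry, and Bax was not matched. Capitals mark the motifs found. Motifs were searched on both strands: a TATA box (TATAAA), an E-box (CACGTG), a cyclic AMP response element (TGACGTCA), 2 forms of the NF-kappaB consensus site, 2 forms of the direct repeat that PXR binds (DR3), and the consensus p53 decamer, of which a full p53 site holds a pair. No motifs overlapped in the windows shown.
Gadd45a: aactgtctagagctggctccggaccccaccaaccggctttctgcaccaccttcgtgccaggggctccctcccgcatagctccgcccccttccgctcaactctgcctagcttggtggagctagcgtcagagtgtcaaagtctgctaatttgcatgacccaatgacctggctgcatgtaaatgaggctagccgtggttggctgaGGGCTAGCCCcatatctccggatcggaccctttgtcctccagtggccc
Gadd45b: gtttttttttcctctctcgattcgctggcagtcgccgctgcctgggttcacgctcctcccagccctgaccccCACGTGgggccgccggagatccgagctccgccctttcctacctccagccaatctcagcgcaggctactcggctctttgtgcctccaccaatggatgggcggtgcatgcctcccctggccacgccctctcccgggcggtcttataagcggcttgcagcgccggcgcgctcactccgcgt
Gadd45g: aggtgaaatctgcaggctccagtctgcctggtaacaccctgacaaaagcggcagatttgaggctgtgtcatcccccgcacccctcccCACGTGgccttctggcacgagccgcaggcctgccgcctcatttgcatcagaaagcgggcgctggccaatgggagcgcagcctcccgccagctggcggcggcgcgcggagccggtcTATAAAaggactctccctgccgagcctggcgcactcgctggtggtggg
Ccng1: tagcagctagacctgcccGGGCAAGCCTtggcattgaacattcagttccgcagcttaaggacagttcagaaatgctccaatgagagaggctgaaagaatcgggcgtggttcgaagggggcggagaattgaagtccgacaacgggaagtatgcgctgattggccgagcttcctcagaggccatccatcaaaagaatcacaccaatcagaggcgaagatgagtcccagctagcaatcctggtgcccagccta
Cdkn1a: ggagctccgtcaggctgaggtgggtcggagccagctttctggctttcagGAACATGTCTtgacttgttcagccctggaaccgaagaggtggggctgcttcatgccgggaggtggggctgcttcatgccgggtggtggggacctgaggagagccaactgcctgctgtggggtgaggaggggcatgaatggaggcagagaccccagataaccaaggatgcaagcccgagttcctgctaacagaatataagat
Aen: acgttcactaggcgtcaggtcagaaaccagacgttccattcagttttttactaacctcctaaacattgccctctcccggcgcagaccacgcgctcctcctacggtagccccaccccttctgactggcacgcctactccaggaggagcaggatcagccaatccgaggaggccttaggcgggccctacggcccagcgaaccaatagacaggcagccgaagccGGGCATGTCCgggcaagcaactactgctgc
These windows lie at chr4:97486800-97487049 (minus strand) for Gadd45a, chr7:9430719-9430968 (minus) for Gadd45b and chr17:13530352-13530601 (minus) for Gadd45g. They lie at chr10:25684877-25685126 (minus) for Ccng1, chr20:7150682-7150931 (plus) for Cdkn1a and chr1:142224283-142224532 (plus) for Aen. A p53 decamer began 48 bases before the start of Gadd45a, 30 before that of Aen, 201 before that of Cdkn1a and 232 before that of Ccng1. Of 33469 promoters in the table, 6.64% held such a decamer in a window of the same length. The Gadd45b and Gadd45g windows shared an E-box, 178 and 163 bases before the start, a motif that 5.59% of promoters held. Gadd45g also had a TATA box 48 bases before its start, as did 12.9% of promoters at any place in the window. Among the members not printed, Btg2 had a cyclic AMP response element 201 bases before its start (1.59% of promoters), and the Mdm2 window held none of the motifs. The 2 forms of the NF-kappaB site were present in 0.0956% and 0.0687% of promoters and the 2 forms of the direct repeat in 0.00598% and 0.0209%, and no member's window held them. A match describes the letters in this window and is not evidence of binding.

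Values below are log2 ratios of the processed signal to the 75th percentile of each array, so that 0 is the 75th percentile and each unit is a factor of 2. That percentile ranged from 633 to 758 signal units with corn oil and from 488 to 627 with PCN. The share of spots well above background ranged from 65.5% to 68.9% with corn oil and from 61.6% to 65.8% with PCN. Arrays of 1 group correlated at 0.990 to 0.993 across genes and arrays of different groups at 0.975 to 0.981. The 3 control arrays shared 1 slide and scan and the 3 PCN arrays another, so that the slide and the treatment cannot be told apart in any value below. All 10 hepatocyte markers on the list were well above background on all 6 arrays, in tissue labelled as liver. Of the 16389 genes tested, 19.9% passed an adjusted p of 0.05 (limma, Benjamini-Hochberg), 4.37% higher and 15.5% lower with PCN, and the median log2 fold change was -0.06.

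The Gadd45 paralogs differed in PCN-treated liver. Gadd45b was 13.6-fold higher, Gadd45g fell 2.91-fold, and Gadd45a differed by less than the arrays of its groups differed among themselves. Gadd45b, the paralog tied to NF-kappaB and TGF-beta signalling, read -0.14, 0.14 and -0.39 on the control arrays (given here and below in the order of replicates 1, 2 and 3) and 3.83, 3.50 and 3.58 on the PCN arrays. The lowest PCN array stood 3.35 above the highest control array. The SD was 0.27 in the control group and 0.17 in the PCN group (n = 3 each), and the log2 fold change was 3.76 ± 0.17 (SE). Since this rise chose the genes, it is given as a description without a test. In rank it stood at percentile 99.96 of the log2 fold changes of all tested genes.

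Gadd45g, the paralog known for its response to cytokines, read 0.53, 0.60 and 0.22 on the control arrays and -1.23, -0.56 and -1.49 on the PCN arrays. Every PCN array lay below every control array, by at least 0.78. Gadd45g fell by 1.54 ± 0.25 (log2, SE, n = 3 per group), with an adjusted p of 0.00793 in limma and a 95% confidence interval from -2.13 to -0.95. It passed the test in each of the 18 alternative processings, including the 6 that leave out 1 array, with log2 fold changes from -1.81 to -1.33.

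Gadd45a, the p53-responsive paralog, read -1.14, -0.88 and -1.46 on the control arrays and -1.43, -0.70 and -0.78 on the PCN arrays. The groups overlapped, with PCN array 1 next to control array 3. The log2 fold change was 0.19 ± 0.24 with an adjusted p of 0.610 (limma) and a 95% interval from -0.37 to 0.76, and it changed sign to -0.08 when arrays were scaled on their E1A spike-in controls, RNAs added in known amounts. The interval leaves room for a rise of Gadd45a but not for one of the size seen for Gadd45b.

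**Figure D1:**
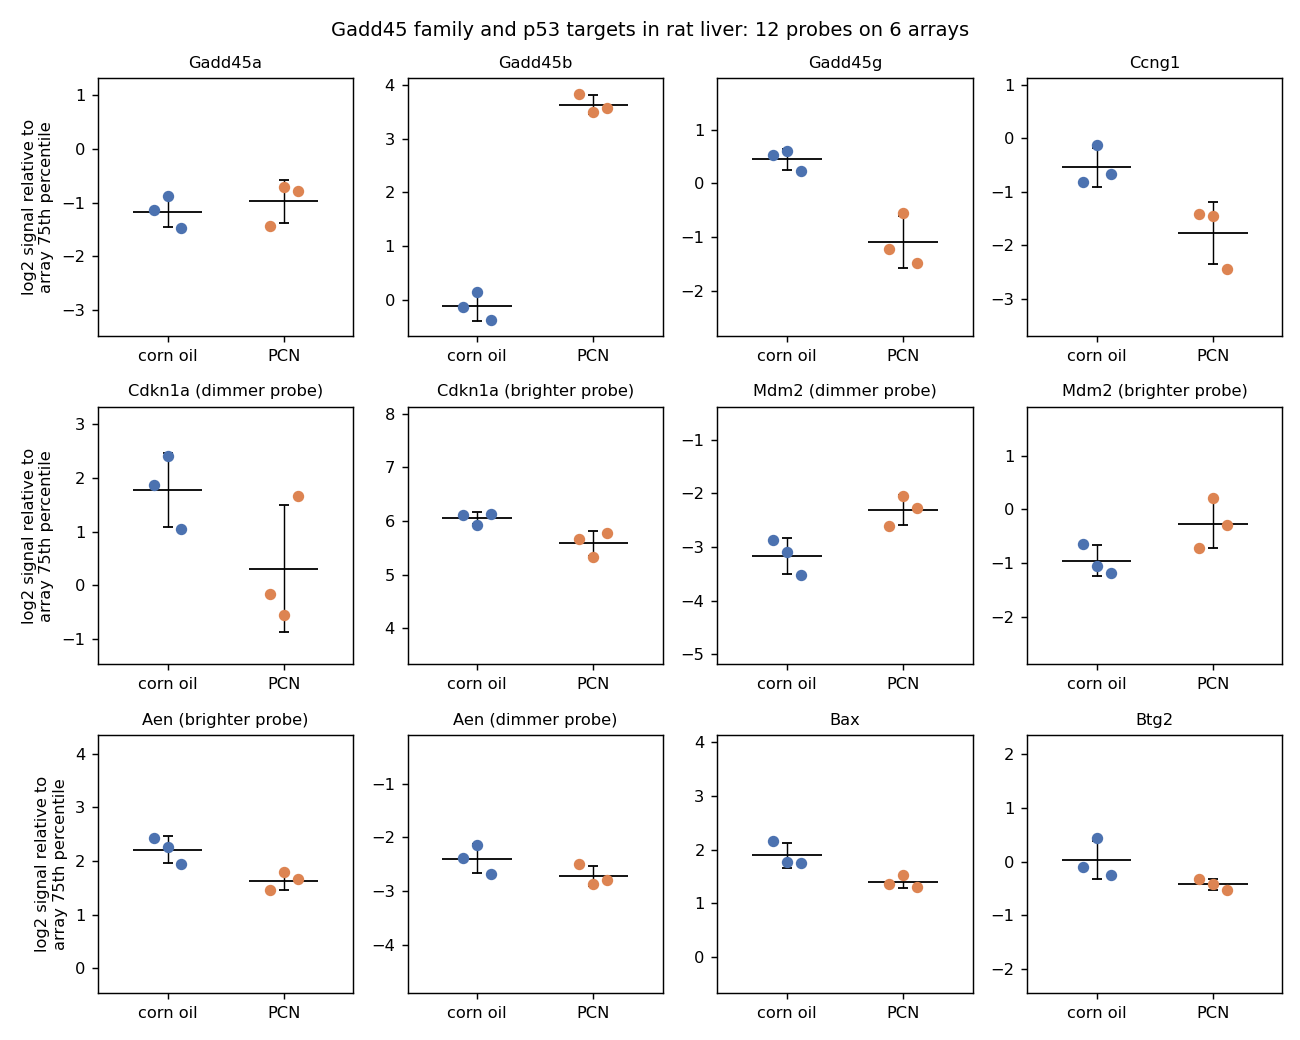
Log2 signal relative to the 75th percentile of the array (vertical axis) for each of the 12 probes in corn oil (blue) and PCN (orange) arrays; points are arrays, long lines are means and bars are SD (n = 3), and every panel spans the same number of log2 units. Gadd45b separates by 3.35 between the nearest arrays of the groups, Gadd45g lies lower on all PCN arrays, and Gadd45a overlaps.

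Differences between paralogs within an array are left as they are by any scaling that multiplies a whole array by 1 factor, such as the percentile used here, median scaling and E1A scaling. Gadd45g minus Gadd45a was 1.67, 1.48 and 1.69 on the control arrays and 0.21, 0.14 and -0.71 on the PCN arrays. These differences did not overlap between the groups and shifted by -1.73 ± 0.30 (SE). The exact permutation test of this shift (two-sided, 20 splits) gave p = 0.1, the smallest that 3 arrays against 3 can give, and adjusted over the 3 pairs tested it was 0.1. Gadd45b minus Gadd45g was -0.66, -0.45 and -0.61 on the control arrays and 5.06, 4.06 and 5.06 on the PCN arrays, a shift of 5.30 ± 0.34 given without a test. The probes differ in sequence, so the size of a difference within one group does not rank the paralogs by abundance, and only its shift between groups is read.

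Among the p53 targets no common rise was seen, and 2 of the 6 fell. Of the 8 genes other than Gadd45b, 3 fell (Gadd45g, Ccng1 and Aen) against 15.5% of all tested genes lower with PCN, and 5 did not pass. No one of the 8 passed the limma test upwards, against 4.37% of all genes. At an unadjusted p under 0.05 (limma), 1 was higher (Mdm2) and 6 were lower. Of all 16389 tested genes, 5653 had an unadjusted p under 0.05 in either direction. In 6 of the 8 every PCN array lay below every control array, which held for 26.7% of all tested genes (41.4% were without overlap in either direction). The 8 genes had a median log2 fold change of -0.48, beside -0.06 over all tested genes. The 8 were listed as relatives of a gene that rose and with earlier results known, so these counts describe them and are not evidence about p53 targets at large.

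Ccng1, which encodes cyclin G1, a p53 target that recruits the phosphatase PP2A to Mdm2, read -0.82, -0.14 and -0.66 on the control arrays and -1.42, -1.45 and -2.44 on the PCN arrays. PCN array 3 was the lowest by a wide margin, and all PCN arrays lay at least 0.59 below the control arrays. Ccng1 fell by 1.23 ± 0.32 (2.34-fold, n = 3 per group, limma adjusted p = 0.0377). The call was lost without control array 1 (-1.37, adjusted p = 0.0672), control array 2 (-1.03, 0.104), control array 3 (-1.29, 0.0836) or PCN array 2 (-1.39, 0.0558), and also under quantile normalization and without the filter on dim probes. Its direction was the same in all 18 alternatives.

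Aen, a nuclease induced by p53 during apoptosis, had 2 probes. The brighter read 2.43, 2.26 and 1.94 on the control arrays and 1.45, 1.78 and 1.66 on the PCN arrays, and the groups stood 0.16 apart. Aen fell by 0.58 ± 0.16 (1.49-fold, limma adjusted p = 0.0461). Of the 6 fits without 1 array, the one without control array 3 kept the call; without control arrays 1 and 2 the adjusted p was 0.129 and 0.122, and without PCN arrays 1 to 3 it was 0.117, 0.0603 and 0.0952. The dimmer probe overlapped between the groups, with a log2 fold change of -0.32 ± 0.17 and an adjusted p of 0.246 over the 18329 tested probes.

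Cdkn1a encodes p21, the CDK inhibitor that carries much of the p53 arrest response. Its brighter probe read 6.12, 5.94 and 6.13 on the control arrays and 5.66, 5.33 and 5.78 on the PCN arrays. All PCN arrays lay below the control arrays, and the log2 fold change was -0.47 ± 0.14, with a limma adjusted p of 0.0624 that missed the threshold. Under 4 of the 18 alternatives it passed, in each case lower with PCN. The other probe, read from 1 spot, scattered widely, at 1.86, 2.41 and 1.04 on the control arrays and -0.17, -0.56 and 1.66 on the PCN arrays. It overlapped between the groups because PCN array 3 was high, and its log2 fold change was -1.46 ± 0.61 (adjusted p over probes 0.148, and 0.0214 without PCN array 3).

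Mdm2, the ubiquitin ligase that removes p53, was the one of the 6 p53 targets with a positive log2 fold change. Its brighter probe read -0.64, -1.05 and -1.18 on the control arrays and -0.71, 0.20 and -0.30 on the PCN arrays. PCN array 1 fell just below the highest control array, so the groups overlapped, and the log2 fold change of 0.69 ± 0.26 did not pass (limma adjusted p = 0.107, 95% interval 0.08 to 1.30). Without PCN array 1 it passed, at 0.91 with an adjusted p of 0.0497. The dimmer probe read -2.88, -3.09 and -3.53 on the control arrays and -2.61, -2.05 and -2.27 on the PCN arrays, with no overlap. This probe was 1.81-fold higher with PCN (0.85 ± 0.21, limma adjusted p over probes 0.0353), where 4.15% of all tested probes passed upwards and 18.9% in either direction. That call was lost with 1 array left out in 4 of 6 fits, with adjusted p from 0.0797 to 0.0905, and under 3 other alternatives.

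Mdm2 was also set against other members within each array. Mdm2 minus Cdkn1a was -6.76, -6.98 and -7.31 on the control arrays and -6.38, -5.13 and -6.07 on the PCN arrays, a shift of 1.16 ± 0.41. Mdm2 minus Ccng1 was 0.19, -0.91 and -0.52 on the control arrays and 0.70, 1.66 and 2.14 on the PCN arrays, a shift of 1.92 ± 0.53. Neither difference overlapped between the groups. Each exact permutation test gave p = 0.1, the smallest possible here, and 0.1 after adjustment over the 3 pairs.

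Bax, the pore-forming protein that opens mitochondria in apoptosis, read 2.15, 1.78 and 1.74 on the control arrays and 1.35, 1.52 and 1.30 on the PCN arrays, from 1 spot per array. The groups did not overlap, and the log2 fold change was -0.50 ± 0.14, just short of the threshold (limma adjusted p = 0.0520). Btg2, an antiproliferative gene of the BTG family, read -0.10, 0.44 and -0.24 on the control arrays and -0.32, -0.42 and -0.52 on the PCN arrays. The Btg2 groups stood 0.07 apart, and the log2 fold change of -0.45 ± 0.19 did not pass (limma adjusted p = 0.142).

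**Figure D2:**
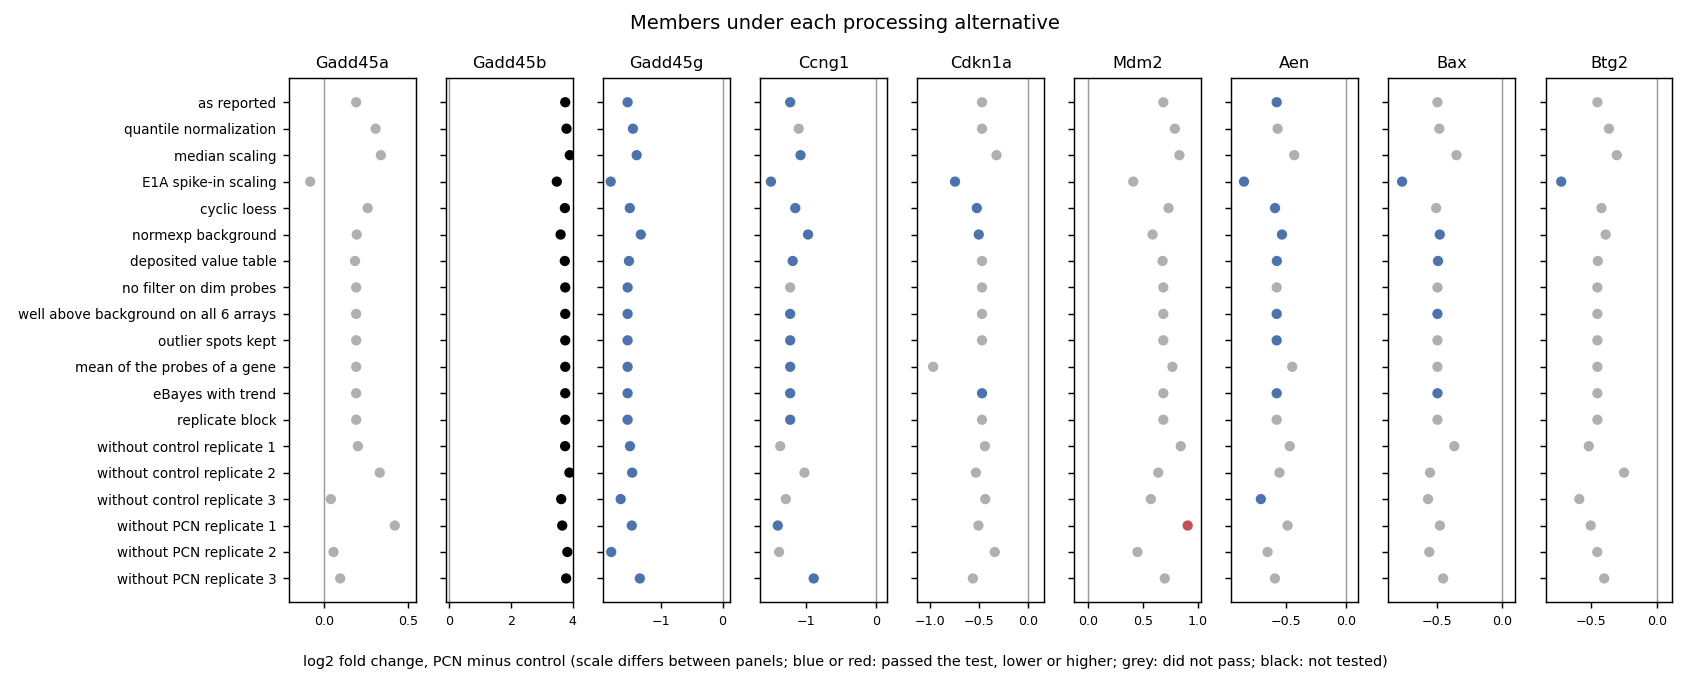
Log2 fold change, PCN minus control (horizontal axes, whose scale differs between panels), of each member as reported and under 18 alternative processings (rows); blue and red points passed the test lower and higher, grey points did not pass, and black points were not tested. Gadd45g passed in every row, Ccng1 in 12 and Aen in 8 of the 18 alternatives, and Gadd45a crossed 0 under E1A scaling.

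Some of the genes that control p53 were lower with PCN. Of 13 tested genes on the list of p53 regulators 5 fell and 8 did not pass. The share that fell was 38.5%, beside 15.5% of all tested genes lower with PCN. The median log2 fold change of the 13 was -0.34, beside -0.06 for all tested genes. The regulators that fell included checkpoint kinases and a p53 ligase. Kat5 was also counted as lower, at -0.42 ± 0.11 (limma adjusted p = 0.0369) on its brighter probe. The other Kat5 probe gave 0.28 ± 0.11 (limma adjusted p over probes 0.113), so its direction is unsettled. Rchy1, a ubiquitin ligase for p53, fell by 0.87 ± 0.11 (limma adjusted p = 0.00376). Chek1, the checkpoint kinase of replication stress, fell by 1.12 ± 0.20 (adjusted p = 0.0113), and Cdkn2a, whose Arf product blocks Mdm2, fell by 0.83 ± 0.15 (adjusted p = 0.0131). Chek2, a kinase that phosphorylates p53, was at least 1.86-fold lower, since no PCN array read it well above background (adjusted p = 0.00751), and its log2 fold change was 0.06 under normexp background correction, an alternative that compresses dim signals. Under normexp Chek1 was at -0.07 and Cdkn2a at -0.14, neither past the test, and 3 regulators fell in place of 5. Mdm4, the partner of Mdm2, gave -0.05 ± 0.12 (adjusted p = 0.812), and its sign turned under several scalings.

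Among other known p53 targets, Plk3 and Rrm2b rose and Tob1 fell. Of 24 tested, 2 rose, 1 fell and 21 did not pass (12.5% passed, beside 19.9% of all tested genes), with a median log2 fold change of 0.01. Plk3, a stress-responsive kinase, rose by 1.44 ± 0.35 (limma adjusted p = 0.0313), and lost its call without control array 1 or 3 or PCN array 2 or 3, with adjusted p up to 0.0883. That call was also lost without the filter on dim probes and with the replicate number as a block. Rrm2b, the p53-induced ribonucleotide reductase subunit, rose by 0.64 ± 0.13 (adjusted p = 0.0160). Its call was lost without control array 1 or 3, under normexp (0.33) and E1A scaling (0.37), without the filter and with the block. Tob1, an antiproliferative gene related to Btg2, fell by 0.45 ± 0.10 (adjusted p = 0.0233). The Tob1 call was lost without control array 1 or 2 or PCN array 1 or 2, under median scaling (-0.31), without the filter and with the block.

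Several standard p53 reporters did not pass. Gdf15, a secreted stress factor, gave -0.76 ± 0.33 (limma adjusted p = 0.152) and Phlda3, an inhibitor of Akt, gave -0.60 ± 0.29 (0.201). Zmat3, an RNA-binding p53 target, gave -0.40 ± 0.15 (0.105) on its brighter probe and 0.40 ± 0.33 on the other, so its direction is unsettled. Ddit4, an inhibitor of mTOR, gave 0.74 ± 0.23 (0.0662) and Sesn2, a sestrin, gave 0.11 ± 0.23 (0.782).

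Among the genes of the proteins that Gadd45 members bind, Cdk1 was lower, and Map3k4 and Pcna did not pass the test. Of 12 tested partners and kinases of the cascade, 2 fell and 10 did not pass, and the median was -0.03. The share that fell, 16.7%, was close to the 15.5% of all tested genes lower with PCN. Cdk1 fell by 1.15 ± 0.20 (limma adjusted p = 0.0104) and Mapk11, a p38 kinase, by 0.57 ± 0.13 (adjusted p = 0.0264). Mapk11 kept its call in 2 of the 6 fits without 1 array and was at -0.11 under normexp. Map3k4 gave -0.02 ± 0.14 (adjusted p = 0.937) and Pcna -0.08 ± 0.11 (adjusted p = 0.631), values whose sign turned under some scalings.

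Among genes of the pathway that is known to drive Gadd45b, Nfkbia rose. Of 18 tested NF-kappaB genes and known inducers of Gadd45b, 1 rose and 17 did not pass (5.56% passed, beside 19.9% of all tested genes), with a median of -0.04. The riser was Nfkbia, the inhibitor and early target of NF-kappaB, at 0.50, 0.48 and 0.48 on the control arrays and 0.79, 0.89 and 1.08 on the PCN arrays. It rose by 0.44 ± 0.11 (limma adjusted p = 0.0344) and kept its call in 1 of the 6 fits without 1 array. Of the 8 other growth arrest and stress genes, none passed the limma test. Of all 16389 tested genes 5653 had an unadjusted p under 0.05, and 1 of the 8 stress genes did. Among these, Xbp1, a factor of the unfolded protein response, gave 0.90 ± 0.26 (adjusted p = 0.0530), Ppp1r15a, also called Gadd34, gave 0.30 ± 0.15 (0.225), and Ddit3, also called Gadd153, gave -0.31 ± 0.17 (0.263).

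Many genes of cell division, the process that Gadd45 proteins and p21 restrain, were lower with PCN. Of 23 cell cycle genes 13 fell, 1 rose and 9 did not pass (60.9% passed), with a median of -0.76. Of 16 cyclins 6 fell and 10 did not pass (37.5% passed), with a median of -0.34. These lists overlap, so their shares are not separate counts. Ccna2 and Ccnb2, which fell, and Ccnb1, which did not pass, are in both. Cdk1, counted above among the Gadd45 partners, is also among the cell cycle genes. Over all tested genes 19.9% passed, 15.5% lower and 4.37% higher with PCN. Mybl2, a factor for mitotic genes, was at least 7.65-fold lower (limma adjusted p = 0.00170), and Ccnb2, a mitotic cyclin, at least 2.87-fold lower (0.00860), and no PCN array read either well above background. Ccna2, cyclin A2, fell by 1.42 ± 0.19 (0.00416), and Ccnf, cyclin F, fell by 1.16 ± 0.11 (0.00123). Cdca3, a gene of mitotic entry, fell by 1.55 ± 0.25 (0.00856) and Ccne1, cyclin E1, by 0.86 ± 0.20 (0.0263). Under normexp 8 cell cycle genes and 2 cyclins fell, with Mybl2 at -0.61, Ccna2 at -0.41, Ccne1 at -0.35 and Ccnb2 at -0.08, the last 3 not past the test; Ccne1 also kept its call in 2 of the 6 fits without 1 array. Ccnd1, the G1 cyclin, gave -0.81 ± 0.35 (0.154), and Ccng2, the paralog of Ccng1, gave 0.12 ± 0.15 (0.619).

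Among relatives of Cdkn1a, Btg2 and Bax, the share that passed was 16.7% of CDK inhibitors, 25% of BTG and TOB genes and 13.3% of BCL2 family genes, beside 19.9% of all tested genes. Of 6 other CDK inhibitors 1 fell, Cdkn2a, named above, and Cdkn1b, p27, gave 0.25 ± 0.16 (limma adjusted p = 0.317). Of 4 BTG and TOB genes 1 fell, Tob1, and Btg1 gave 0.13 ± 0.17 (0.647). Of 15 BCL2 family genes 2 rose and 13 did not pass, with a median of -0.11. Bnip3l, a mitophagy receptor, rose by 0.76 ± 0.13 (0.0110), and Hrk, a BH3-only activator of apoptosis, read 2.96 ± 0.36 higher (0.00303). Hrk was well above background on 1 of 3 control arrays, and its other probe gave -0.23 ± 0.28. The survival genes Mcl1 and Bcl2l1 gave -0.18 ± 0.14 (0.422) and -0.11 ± 0.10 (0.470).

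**Figure D3:**
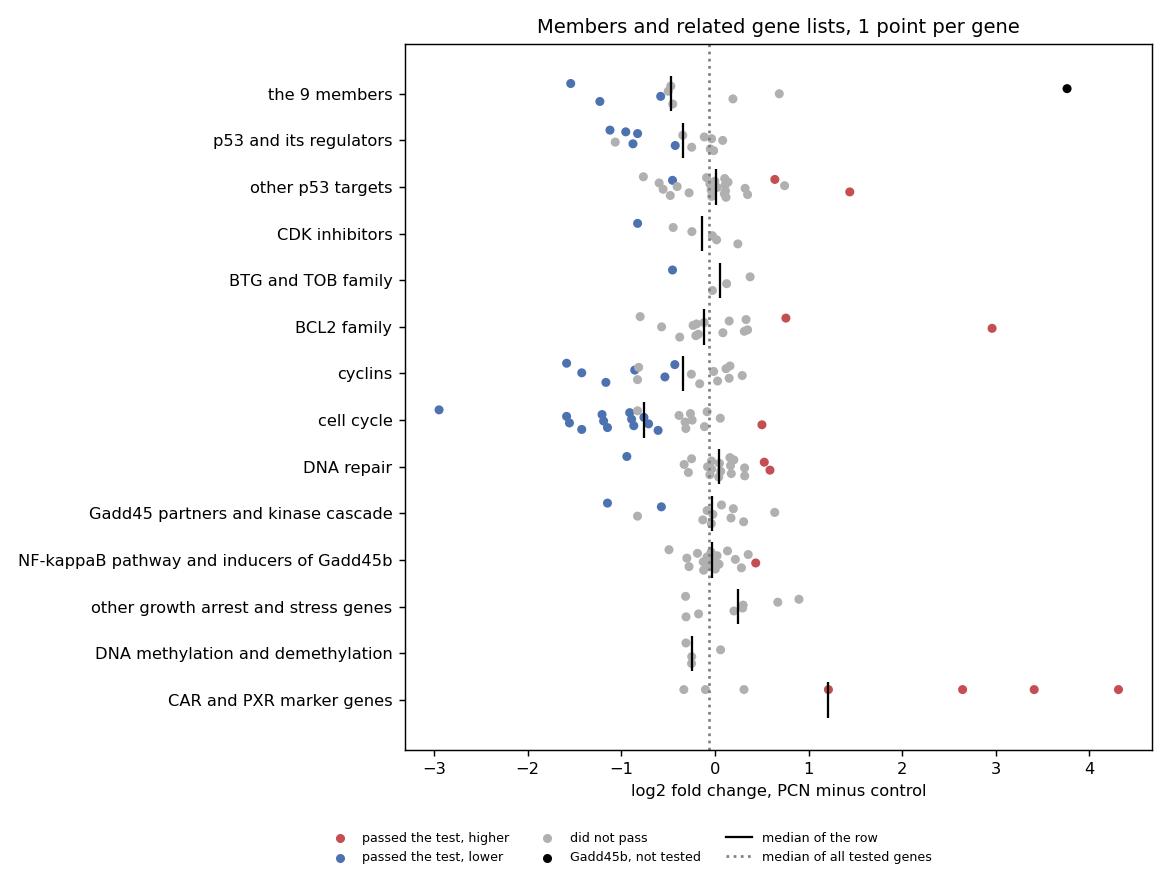
Log2 fold change, PCN minus control (horizontal axis), of each gene of the members and of 13 related lists (rows); blue and red points passed the limma test lower and higher, grey points did not, the black point is Gadd45b (not tested), short lines are medians and the dotted line is the median of all tested genes, -0.06. The CAR and PXR genes reach 4.31, the cell cycle row has its median at -0.76, and the row of other p53 targets straddles 0 with its median at 0.01.

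Known targets of PXR and its relative CAR rose by up to 4.31 on the log2 scale. The list of 7 tested genes held 4 such targets, all of which rose, and the receptors with their partner Rxra, 3 genes that did not pass. Its median was 1.21, and 57.1% of it passed, beside 19.9% of all tested genes. Cyp3a23-3a1, a cytochrome P450 that PXR induces, read 3.54, 4.14 and 4.14 on the control arrays and 8.14, 8.17 and 8.43 on the PCN arrays. Its log2 fold change of 4.31 ± 0.19 (limma adjusted p = 0.000169) stood above that of Gadd45b. Slco1a4, a hepatic uptake transporter, rose by 3.41 ± 0.22 (0.000356), Cyp2b2 by 2.65 ± 0.23 (0.000955) and Por, the P450 reductase, by 1.21 ± 0.13 (0.00220). The receptors gave -0.10 ± 0.11 for Nr1i2, which is PXR (0.561), and -0.33 ± 0.38 for Nr1i3, which is CAR (0.580).

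The genes with profiles nearest to Gadd45b were found by the root mean square distance over 6 arrays between profiles centred on the control mean. The nearest was Dnajb3, a heat shock co-chaperone gene, at a distance of 0.18 and a log2 fold change of 3.85, well above background on 2 of 3 control arrays. Next came Slco1a4 (distance 0.36), Ugt2a3, a glucuronosyltransferase (0.43), Cyp3a9, another P450 of the 3A subfamily (0.48), and Cyp3a23-3a1 (0.49). The measure favours genes with a rise of the same size, and so the list repeats the choice of Gadd45b by its rise.

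**Figure D4:**
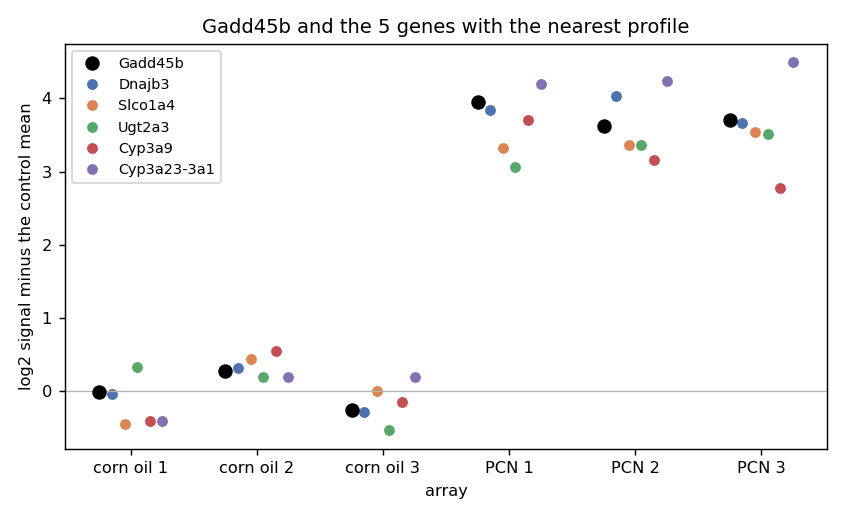
Log2 signal minus the control mean (vertical axis) on each of the 6 arrays (horizontal axis) for Gadd45b (black) and the 5 genes with the nearest profile (colours); arrays of a group have no order. All 6 genes lie near 0 on the control arrays and far above it on every PCN array, with Gadd45b between 3.62 and 3.96 there.

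The genes nearest to Gadd45g, by the same measure, were Mcpt1, a mast cell protease (distance 0.17), Myog, a muscle factor (0.19), and Ttll13 (0.24). Their signals were dim, and no PCN array read Myog or Ttll13 well above background, so they were at least 2.70-fold and 2.35-fold lower. Under normexp Myog was at -0.13, Ttll13 at -0.07 and Mcpt1 at -0.32, none past the test, and Ttll13 also lost its call under quantile normalization and without control array 1 or 2. The nearest to Ccng1 were Try10 (0.19), Lrat, the retinol-esterifying enzyme of stellate cells (0.19), and Esm1, an endothelial gene (0.19). No PCN array read Try10 well above background, and Try10 and Esm1 did not pass (limma adjusted p = 0.0514 and 0.103). The nearest to Aen were Plekha4 (0.06), Abhd6 (0.08) and Spmip4 (0.09). Abhd6 did not pass (limma adjusted p = 0.0753), and Plekha4 and Spmip4 each kept their call in 1 of the 6 fits without 1 array.

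Markers of other liver cells were read beside the falls of Gadd45g, Ccng1 and Aen. Whole liver is a mixture, so fewer cells of a type and less RNA per cell cannot be told apart. The share that passed in either direction was 33.3% of T cell, 27.3% of stellate, 25% of neutrophil, 20% of endothelial and 10% of hepatocyte markers. Over all tested genes it was 19.9%. Of 6 T cell markers 2 fell, Lck (-0.67 ± 0.14, limma adjusted p = 0.0203, 0.06 under normexp, called in 2 of the 6 fits without 1 array) and Cd3d (-0.66 ± 0.12, 0.0108), and their summed linear level, in units of the array percentile, was 0.615 to 0.774 on the control arrays and 0.434 to 0.544 on the PCN arrays. Of 11 Kupffer cell markers none passed the limma test and 3 had an unadjusted p under 0.05, beside 5653 of all 16389 tested genes. Their log2 fold changes ran from -0.52 to -0.22, with a median of -0.39, and the summed level was 68.3 to 78.3 against 48.4 to 70.3. A dimmer probe of the marker Csf1r did pass, at -0.92 ± 0.16 (limma adjusted p over probes 0.0112), and that of Cd5l did not (-0.77 ± 0.34, 0.164). Across the 18 alternatives 0 to 2 Kupffer cell markers fell. Of 11 stellate cell markers 2 fell, Lrat (-1.33 ± 0.22, 0.00867) and Acta2 (-0.74 ± 0.16, 0.0225), and 1 rose, Rgs5 (0.96 ± 0.17, 0.0119), with a summed level of 21.7 to 23.1 against 19.3 to 23.0. The Acta2 call was lost without control array 1 or 3 or PCN array 2 or 3, under quantile normalization, without the filter on dim probes, and under normexp (-0.40). Of 5 endothelial markers 1 fell, Cdh5 (-0.49 ± 0.14, 0.0496), with a summed level of 23.9 to 26.4 against 22.6 to 26.0, and its call was lost whichever 1 of the 6 arrays was left out. Of 4 neutrophil markers 1 fell, Fcnb (-0.66 ± 0.18, 0.0433), with a summed level of 0.970 to 1.80 against 0.767 to 1.28, and its call was kept in 1 of the 6 fits without 1 array, the one without PCN array 2. No call was made among 2 B cell, 4 bile duct and 4 red blood cell markers, of which 1 bile duct marker had an unadjusted p under 0.05. The bile duct sum was higher with PCN and did not overlap (0.433 to 0.536 against 0.559 to 0.659). The B cell sum was 0.111 to 0.145 against 0.0617 to 0.170, and the red blood cell sum 243 to 271 against 192 to 245. Of 10 hepatocyte markers 1 rose, Hnf4a (0.63 ± 0.13, 0.0160), with a summed level of 2268 to 2377 against 2098 to 2638. The Hnf4a call was lost without control array 3, under E1A scaling (0.36), without the filter on dim probes and with the replicate block. The part of these cell types in the results for the members was not tested.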

How the data were processed

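Liver RNA of 6 rats was read on 1-colour arrays. Per the file headers, Agilent Feature Extraction 10.7.3.1 produced the deposited intensity values, of which its background-subtracted processed signal was used. Other columns of the deposited files mark spots as outliers or as well above background. A second set of values that the authors deposited, compared with the scanner values, is a linear ratio of the signal to the 75th percentile of the array. The files name build rn4; gene names come from RefSeq (GRCr8) through transcript accessions, which gave 18004 of 30367 probes exactly 1 symbol.

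The log2 signal was taken relative to the 75th percentile of all non-control spots of its array (R 4.3.3, data.table version 1.17.8). Outlier spots were left out (14 probes lost) and spots of 1 probe averaged. Probes entered the test where 1 group or both had all 3 arrays well above background, with at least 50% of its spots so marked, which left 18329 probes. The brightest stood for a gene, which left 16389 genes and features. The test was limma 3.58.1 (two-sided, lmFit then eBayes, without covariates), Benjamini-Hochberg adjusted over all of them, threshold 0.05. The second probes were adjusted over all probes. A fold given as "at least" sets the bright group against the higher of the probe's signal and the lowest signal well above background on each dim array. The 3 arrays per group limit the precision.

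The members and lists were chosen with earlier results of these data known. Named genes were the members, up to 4 called members of each list with the largest change (with none called, up to 2 of the brightest), and a fixed set of p53, Gadd45 and PXR genes; a few that met this rule were left out for brevity. Alternatives were quantile, median, spike-in and cyclic loess scaling, normexp (offset 50, on the median spot signal), the authors' values (pseudocount 0.01), other filters, the mean of probes, a trend in eBayes, a replicate block and leaving out each array. Proteins were not used here. Some genes of the lists are counted but not reported singly here.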

Additional observations from a re-analysis of the deposited data

How the results depend on the processing

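The 18 alternatives kept Gadd45g lower and past the threshold. Gadd45b, not tested, was 3.49 to 3.91 and moved most under E1A spike-in scaling, to 3.49 (3.63 to 3.90 with 1 array left out). Gadd45a turned to -0.081 under E1A scaling. Ccng1 missed the threshold under quantile normalization (-1.11) and with no filter on dim probes (-1.23), and was -1.40 to -0.89 with 1 array left out. Aen missed it under quantile normalization (-0.57), median scaling (-0.43), no filter (-0.58), the mean of its probes (-0.45) and the replicate block (-0.58), and was -0.71 to -0.47 with 1 array left out. Cdkn1a passed under E1A scaling (-0.74), cyclic loess (-0.52), normexp (-0.50) and the eBayes trend (-0.47). Bax passed under E1A scaling (-0.77), normexp (-0.48), the deposited values (-0.49), the filter on all 6 arrays (-0.50) and the trend (-0.50), and Btg2 under E1A scaling (-0.72). Mdm2 was 0.45 to 0.91 with 1 array left out. The count of members lower, 3, was 1 under quantile normalization and without the filter, 6 under E1A scaling, 5 under normexp and the trend, and 1 to 2 with 1 array left out, and the count higher was 0 to 1. The cause of these shifts was not tested.

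Over all genes, 3263 passed (716 higher, 2547 lower, 78.1% lower). E1A scaling gave 5179 (157 higher, 5022 lower, 97%), quantile normalization 1426 higher (55.4% lower), median scaling 1784 higher (52.8%), cyclic loess 1093 higher (65%) and normexp 1435 lower (64.4%). No filter gave 1967 (283 higher, 1684 lower). Leaving out 1 array gave 2023 to 2592 in all, 291 to 543 higher and 1715 to 2138 lower. The median of all genes was -0.06 as reported, 0.05 under quantile normalization, 0.08 under median scaling and -0.34 under E1A scaling. Calls in the related lists numbered 37, 22 with no filter, 24 with the replicate block and 24 to 32 with 1 array left out.

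Same-numbered arrays did not deviate together (r of -0.10, -0.03 and -0.05), so the numbers only name samples; with the replicate block 2067 genes passed, 306 of them higher.

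Signs turned, each for a value that was not called except where said, for Map3k4 under quantile normalization (0.29), median scaling (0.13), cyclic loess (0.23), normexp (0.085), the deposited values (0.012) and in fits without 1 array (-0.10 to 0.12). They turned for Mdm4 under quantile normalization (0.26), median scaling (0.10), cyclic loess (0.20), normexp (0.15) and without 1 array (-0.11 to 0.033). Median scaling turned Bcl2l1 (0.033), Nr1i2 (0.046) and Pcna (0.064). E1A scaling turned Btg1 (-0.15), Cdkn1b (-0.029), Ccng2 (-0.16) and Sesn2 (-0.17). Ccng2 was -0.0092 as the mean of its probes, Btg1 -0.023 to 0.26 and Sesn2 -0.079 to 0.35 without 1 array. Normexp turned Try10 (0.099) and the called genes Lck (0.058) and Chek2 (0.057). The called gene Hrk was -0.23 with the filter on all 6 arrays, which takes its other probe.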

Other observations

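Among DNA repair genes, Parp1 and Xrcc1 were higher with PCN. Of 19 tested, 2 rose and 16 did not pass in either direction, with a median log2 fold change of 0.05, beside 19.9% of all tested genes that passed in either direction. Parp1, the sensor of strand breaks, rose by 0.59 ± 0.13 (limma adjusted p = 0.0255), and Xrcc1, a scaffold of single-strand break repair, rose by 0.53 ± 0.14 (adjusted p = 0.0375). Parp1 kept its call in 2 and Xrcc1 in 1 of the 6 fits without 1 array. Gadd45 proteins have also been linked to active DNA demethylation. Over all 16389 tested genes 5653 had an unadjusted p under 0.05 (limma). Of 4 tested genes of DNA methylation and demethylation none did, and none passed the limma test. Among these, Tdg, the glycosylase of that route, gave -0.25 ± 0.11 (adjusted p = 0.164).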
